A study of Mus musculus with 2 samples.

Results

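Unipolar brush cells are small excitatory interneurons of the cerebellar cortex that relay vestibular input through a single brush-like dendrite. They arise from the rhombic lip, the dorsal germinal zone that also makes granule cells and the glutamatergic neurons of the cerebellar nuclei, and many leave the cell cycle before birth. Their lineage is marked by the transcription factors Eomes (Tbr2) and Lmx1a, and the calcium-binding protein calretinin (Calb2) marks a mature subtype. Here post-mitotic brush cells were defined in single-cell RNA sequencing of the embryonic mouse cerebellum as barcodes with at least 2 unique molecular identifiers (UMIs, single captured transcripts) of Eomes, at least 1 of Lmx1a and 0 of the proliferation genes Mki67 and Top2a. The rule found 758 such cells among 33294 kept barcodes, those that held 1000 or more UMIs and 500 or more genes and no more than 10% of UMIs from mitochondrial genes. Of these, 535 came from the control library and 223 from the mutant library.

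The control cerebella were cre-negative, and the labels do not say whether they carried floxed alleles. The mutants carried Blbp-cre together with Ctnnb1(ex3)fl/wt and Smarca4fl/fl. Blbp-cre acts in radial glia and related progenitors, so cells that descend from them can carry the recombined alleles. Loss of the floxed Ctnnb1 exon on 1 allele makes beta-catenin, which drives transcription in canonical Wnt signalling, resistant to degradation. Smarca4, an ATPase of the BAF chromatin remodelling complex, is floxed on both alleles, and these cerebella carried lesions. Embryos were at E16.5, and 3 samples of each genotype were pooled into 1 library, so there was no replicate, no difference was tested, and every interval below is a 95% interval for counting error alone. A difference between libraries therefore cannot be told apart from a difference between pools.

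Median depth was 10081 UMIs (range 1775 to 68907) in control brush cells and 12048 UMIs (2464 to 58264) in mutant brush cells, with 3366 and 3735 detected genes. The libraries as a whole had medians of 10261 and 9936.5 UMIs over 16812 and 16482 kept barcodes. Haemoglobin transcripts reach other droplets as free RNA. They took 5.16% of the summed UMIs of control brush cells and 3.68% of those of mutant brush cells. The median share per brush cell was far lower and in the other order, at 0.616% in the control library and 0.715% in the mutant library. In 13 control and 2 mutant brush cells haemoglobin took most of the UMIs. No brush cell barcode occurred as a brush cell in both libraries, and 1 brush cell barcode was also a kept barcode of the other library. Scrublet called 34 control brush cells (6.36%) and 17 mutant brush cells (7.62%) as doublets, which were kept here.

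The mutant library held fewer post-mitotic brush cells. They made up 3.18% of kept control barcodes (exact binomial interval 2.92 to 3.46) and 1.35% of kept mutant barcodes (1.18 to 1.54). The ratio of the mutant to the control share was 0.425 (0.362 to 0.498). Cycling cells of the same lineage, which met the Eomes and Lmx1a criteria and had at least 1 UMI of Mki67 or Top2a, numbered 456 (2.71%) and 165 (1.001%), with a ratio of 0.369 (0.307 to 0.442). Post-mitotic cells were thus 54.0% of the Eomes and Lmx1a cells in the control library (50.8 to 57.1) and 57.5% in the mutant library (52.4 to 62.4), and these intervals overlapped. Shares of a library also depend on how many other cells it holds. For comparison, non-cycling cells with Atoh1, the factor of the granule lineage, and no UMI of Eomes had a ratio of 0.635 (0.552 to 0.730), above the interval for brush cells. Here non-cycling means no UMI of Mki67 or Top2a, which does not show that a cell had left the cell cycle. Cells with Neurod1 but no Atoh1 or Eomes, a group that takes in differentiating granule neurons, had a ratio of 0.527 (0.487 to 0.570).

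**Figure D1:**
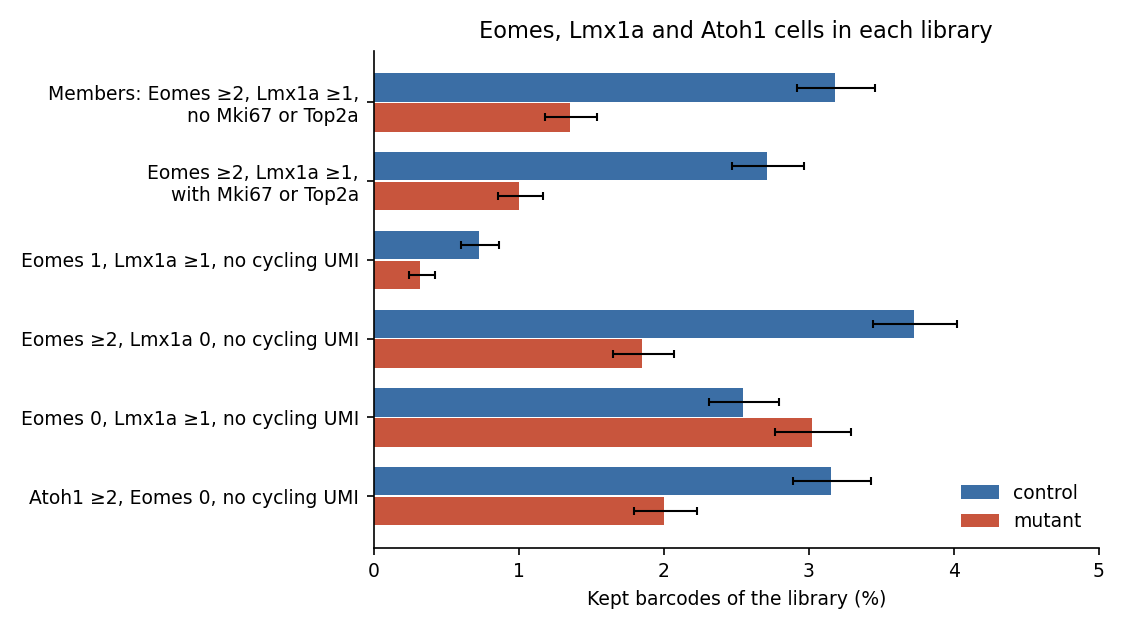
Percentage of kept barcodes in each library (horizontal axis) that belong to the brush cell group, to the groups that miss 1 of its criteria, and to non-cycling Atoh1 cells. Bars are the share, whiskers the exact 95% binomial interval. Control bars are longer than mutant bars in every group except cells with Lmx1a and no Eomes, at 2.55% and 3.02%.

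The thresholds fell within a continuous range of counts. Eomes had a median of 5 UMIs per brush cell in both libraries and Lmx1a a median of 2, and 106 control and 40 mutant brush cells sat at the minimum of 2 Eomes UMIs, with 233 and 92 at the minimum of 1 Lmx1a UMI. Just outside the rule, 122 control and 53 mutant post-mitotic cells had 1 Eomes UMI with Lmx1a. A further 626 and 305 had 2 or more Eomes UMIs and no Lmx1a UMI, a ratio of 0.497 (0.432 to 0.571). On the cycling side, 141 control and 39 mutant cells were left out for exactly 1 UMI of Mki67 and Top2a together. Cells with Lmx1a and no Eomes were the exception in direction, at 428 control and 498 mutant cells. The Eomes cells without an Lmx1a UMI held less of the brush cell genes: Calb2 stood at 82.1 CPM (UMIs of a gene scaled to a total of 1e6 UMIs over the group) in the control library and 58.8 CPM in the mutant library, against 266.9 and 261.4 CPM in brush cells. Car10, a carbonic anhydrase-related protein, stood at 141.5 and 152.4 CPM in those cells against 493.3 and 615.5 CPM in brush cells.

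The label was checked against markers that the rule did not use. Calb2 had a UMI in 181 control brush cells and 80 mutant brush cells, and Samd3, the other listed marker, in 130 and 48. After each cell was thinned to 3000 UMIs, which 528 control and 219 mutant brush cells could supply, Calb2 was found in 25.8% of control brush cells (22.1 to 29.7) and 22.8% of mutant brush cells (17.4 to 29.0). Microglia-type barcodes, which should lack Calb2 and measure free RNA, gave 1.65% and 1.22%. Without thinning the brush cell shares were 33.8% and 35.9%. Samd3 was found in 11.4% and 13.7% of thinned brush cells and in 0.83% and 0% of thinned microglia-type barcodes. Calb2 or Samd3 had a UMI in 221 control and 94 mutant brush cells. Defining genes of other Lmx1a neurons were near 0: the dopaminergic genes Th and Foxa2 had 1 UMI or none each in all brush cells of a library.

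Compared with all other kept barcodes of their own library, brush cells held many genes at a higher level in both libraries. Of 9410 genes measured in both, 548 (5.82%) were at least 1.5-fold higher in brush cells in both libraries, a description by size, since the cells were chosen on their transcripts. Taken singly, 9.94% of genes were higher and 16.9% lower in the control library, and 9.21% and 16% in the mutant one. Tmem158, a small membrane protein, led at 294.1 CPM in control and 204.2 CPM in mutant brush cells, against 39.0 and 25.6 CPM in the other cells. Sema3a, a repulsive axon guidance ligand, stood at 381.6 and 255.5 CPM against 64.3 and 35.2 CPM. The other leading genes included the imprinted gene Nnat at 14583 and 10219 CPM, Car10, Cdh12, Frmd4b, Sorbs2, Mab21l2, Neurod6, Cacna2d1, Hdac9, Cbln1 and Mgat5. Calb2 was 3.92 log2 units higher in brush cells than in other cells of the control library and 1.36 units higher in the mutant library. That gap came with the level in the other cells, 16.7 CPM in the control library and 101.4 CPM in the mutant library.

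Promoter windows of these genes were read from RefSeq (build GRCm38.p6, 250 bases before to 50 after an annotated start) for 11 of the 15 leading genes. They were searched on both strands for CAGATG and its reverse complement, an E-box of the kind bound by Neurod1, a proneural factor that had a UMI in 92.8% of thinned control and 81.3% of thinned mutant brush cells. Sorbs2, an actin-associated adaptor, and Hdac9, a histone deacetylase, held it, and 17.2% of 27025 promoter windows of the same length did. Both windows are shown for their match, in capitals. The Sorbs2 window is chr8:45507538-45507837 on the plus strand and the Hdac9 window is chr12:34917046-34917345 on the minus strand.
Sorbs2: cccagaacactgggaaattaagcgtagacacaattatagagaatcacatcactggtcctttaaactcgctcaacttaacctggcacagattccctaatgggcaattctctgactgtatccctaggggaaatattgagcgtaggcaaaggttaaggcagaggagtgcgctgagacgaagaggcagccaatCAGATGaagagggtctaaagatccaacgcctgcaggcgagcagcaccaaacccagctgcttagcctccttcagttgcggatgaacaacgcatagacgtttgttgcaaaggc
Hdac9: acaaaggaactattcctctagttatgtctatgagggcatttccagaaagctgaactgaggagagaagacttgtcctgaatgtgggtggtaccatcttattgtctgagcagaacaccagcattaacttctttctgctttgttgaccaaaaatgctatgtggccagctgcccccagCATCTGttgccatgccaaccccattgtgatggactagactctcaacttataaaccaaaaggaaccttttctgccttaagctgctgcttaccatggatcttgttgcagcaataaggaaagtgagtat
A match is a description of these letters and was tested for nothing else.

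Against neighbouring groups the brush cells showed graded differences. Relative to cycling Eomes and Lmx1a cells, they held more of the cannabinoid receptor Cnr1 (81.6 against 29.4 CPM in the control and 81.5 against 29.9 CPM in the mutant library) and more Neurod6, Cbln1, Stmn4 and Tmem200a. Of the genes measured, 7.83% in the control library and 10.5% in the mutant library were higher by 1.5-fold or more than in the cycling cells, and 9.28% and 11.3% lower. The lowest were mitotic genes beyond those in the rule: Nusap1, a spindle protein, stood at 6.2 and 3.0 CPM in brush cells and at 241.9 and 250.8 CPM in cycling cells, with Aurkb, Ccnb1, Spc25, Ndc80 and Hist1h2ab beside it. Otx2, a homeobox factor of the rhombic lip, stood at 276.3 and 226.2 CPM in brush cells and at 341.7 and 342.0 CPM in cycling cells.

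Non-cycling Atoh1 cells, with no UMI of Eomes, Mki67 or Top2a, are another group of the rhombic lip lineages. Relative to them, brush cells held 4.16 log2 units more Car10 in the control and 4.57 more in the mutant library. Brush cells also held more Dscaml1, Kcnip4, Cdh12 and Cacna2d1. They held less Atoh1, by which that group was chosen, and less Ccnd1, Thsd7b, Cdh20, Btbd11 and Alcam. In this comparison 19.9% of control-library and 12.4% of mutant-library genes were higher by 1.5-fold or more in brush cells, and 14.4% and 9.66% were lower. Relative to Neurod1 cells without Atoh1 or Eomes, where 5.14% and 7.27% of genes were higher and 5.36% and 7.03% lower in brush cells, the leading gene was Sema3a, at 3.53 and 3.25 log2 units. Nts, which encodes the neuropeptide neurotensin, and Car10, Hdac9 and Mab21l2 were among the next. Csmd3, Cdkn1c, Fstl5, Pbx3, Epha5 and Cdh8 were lower.

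The brush cell marker genes stood at similar levels in mutant and control brush cells. Over all 9213 genes that reached 10 CPM in either library's brush cells, 570 (6.19%) were higher in mutant brush cells by 1.5-fold or more and 195 (2.12%) lower, by size, on a log2 scale with 1 CPM added. The median log2 ratio was 0.05. Of the 10 brush cell markers, which include the rule's own Eomes and Lmx1a, 0 were past 1.5-fold in either direction, and their median log2 ratio was -0.12. Calb2 stood at 266.9 CPM in control and 261.4 CPM in mutant brush cells, a fold of 0.98 (0.90 to 1.07), and Samd3 at 40.4 and 46.0 CPM, a fold of 1.14 (0.92 to 1.40). Both intervals include 1. Pax6, the paired-box factor of rhombic lip derivatives, was at 383.1 and 316.3 CPM. The widest gaps were those of Uncx, a homeobox factor, at 264.9 and 178.9 CPM (fold 0.68, 0.61 to 0.74), and of Plcb4, a phospholipase C, at 40.7 and 59.8 CPM (fold 1.47, 1.21 to 1.78). Uncx passed 1.5-fold in 5 of 16 alternative settings. In brush cells without a UMI of Wif1, Fstl4, Adamts19 or Notum, Plcb4 had a log2 ratio of -0.13 and 1 of the 10 markers, Samd3, was past 1.5-fold, at 0.69.

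**Figure D2:**
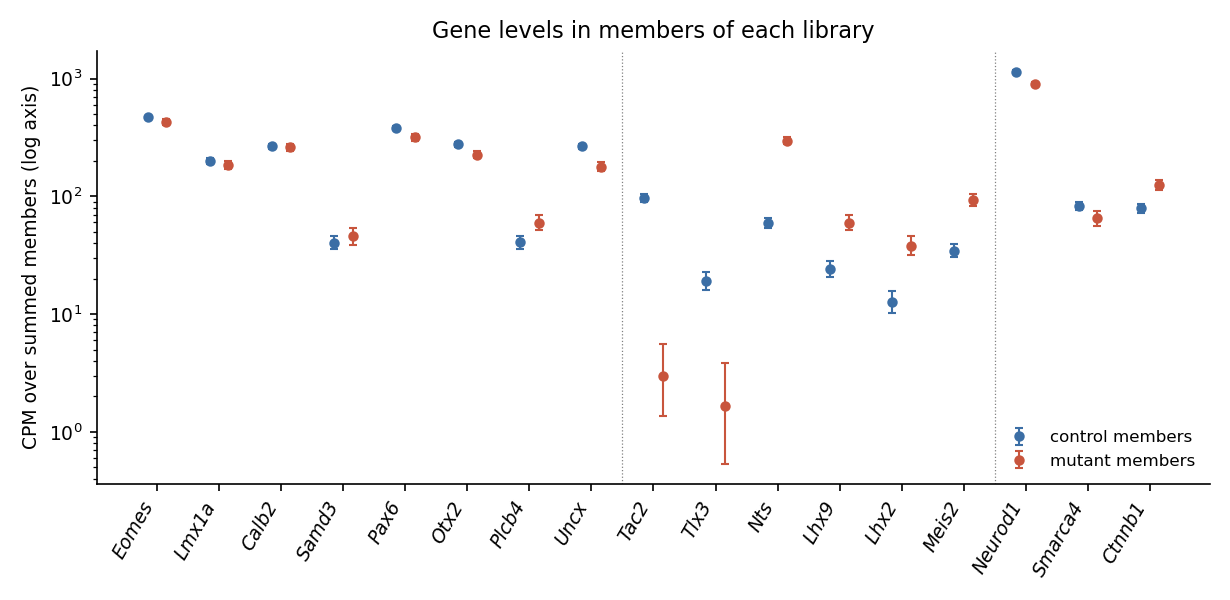
CPM over summed brush cells on a log axis for 8 brush cell markers (left of the first dotted line), genes that differed most or belong to cerebellar nuclei (between the lines), and Neurod1 and the targeted genes (right). Points are the libraries' values and whiskers exact 95% Poisson intervals. Tac2 and Tlx3 lie lower in mutant brush cells, at 96.2 against 3.0 CPM and 19.1 against 1.6 CPM, while the Calb2 values nearly coincide.

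Neuronal maturation showed no list-wide shift. Of 16 genes such as the microtubule proteins Tubb3 (1544 and 1408 CPM) and Stmn2 (2301 and 1875 CPM), 0 passed 1.5-fold in either direction, with a median log2 ratio of -0.05. Among 18 genes of glutamate release and reception, 13 reached 10 CPM, and 4 were higher and 0 lower, but 4 genes reached 10 CPM in the mutant library alone. The vesicular transporter Slc17a6, which loads glutamate into synaptic vesicles, stood at 193.2 and 164.7 CPM. The higher ones were Grik1 (5.2 and 38.8 CPM), Gria1 (1.8 and 14.5 CPM) and Grin2a (5.9 and 10.5 CPM), whose direction that filter fixed, and Grm5 at 35.9 and 82.5 CPM, with 1 mutant cell holding 87 of its 251 UMIs. In brush cells without a UMI of Wif1, Fstl4, Adamts19 or Notum, 1 of the 13 was higher and 2 were lower. In 9 of 11 immediate early and dissociation genes and 8 of 10 hypoxia and glycolysis genes that reached 10 CPM, 0 passed in either direction. Of 14 granule lineage genes, 11 reached 10 CPM and 2 were lower: Mfap4 at 41.3 and 21.0 CPM and Nhlh2 at 95.3 and 61.2 CPM. Neurod1 stood at 1145 and 894.0 CPM.

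Of the 2 targeted genes, Smarca4 (ENSMUSG00000032187, GRCm38 chromosome 9, 21616169 to 21704230, plus strand) stood at 83.0 CPM in control brush cells (76.2 to 90.2) and 65.1 CPM in mutant brush cells (56.3 to 74.8). Its fold was 0.78 (0.66 to 0.92), it was past 1.5-fold in 0 of 16 alternative settings, and after thinning its log2 ratio was 0.05. The labels do not say which exons were floxed, and a tag at the transcript's 3' end need not lie in them. Ctnnb1 (ENSMUSG00000006932, chromosome 9, 120929216 to 120960507, plus strand) stood at 78.9 and 125.6 CPM, a fold of 1.59 (1.39 to 1.82). A 3' tag lies outside its floxed exon, so the level checks nothing about the deletion. Of 26 BAF subunit genes, 25 reached 10 CPM, 1 was higher and 0 lower, with a median log2 ratio of 0.04. The 1 was Brd7, a bromodomain subunit, at 81.2 and 159.8 CPM, whose log2 ratio fell below 1.5-fold, to 0.47, in brush cells without a UMI of Wif1, Fstl4, Adamts19 or Notum, which left 0 of 25. Smarca2, the paralogous ATPase, stood at 78.9 and 107.9 CPM.

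Tac2 was the gene with the lowest mutant to control ratio among those at 50 CPM or more. Tac2 (ENSMUSG00000025400, chromosome 10, 127724478 to 127731768, plus strand) encodes neurokinin B, a tachykinin neuropeptide. It had 633 UMIs in 70 of 535 control brush cells and 9 UMIs in 5 of 223 mutant brush cells, or 96.2 CPM (88.9 to 104.0) against 3.0 CPM (1.4 to 5.6). The log2 ratio was -4.62, and it passed 1.5-fold in all 16 alternative settings, with values from -5.21 to -3.03. Some settings, such as the changes of the gene filter, leave the ratio as it was. After thinning 7.58% of control brush cells (5.47 to 10.2) and 0.46% of mutant brush cells (0.012 to 2.52) had a UMI, and 0 microglia-type barcodes of either library did. In the control library 86.4% of all Tac2 UMIs of kept barcodes lay in barcodes with 2 or more Eomes UMIs, and 33.5% lay in the post-mitotic brush cells. In the mutant library those shares were 16.4% and 2.27%. Cycling Eomes and Lmx1a cells held 19.2 CPM in the control library and 0.82 CPM in the mutant library, and Eomes cells without Lmx1a held 93.4 and 13.3 CPM.

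Control brush cells with Tac2 carried brush cell genes. Of the 70 cells, 30 also had Calb2, and Calb2, Pax6 and Otx2 stood at 284.3, 299.8 and 251.3 CPM in them. The Tac2 promoter window (RefSeq, GRCm38.p6, chr10:127724228-127724527, plus strand) is shown because Tac2 had the lowest ratio and the mutants carry stabilised beta-catenin, the partner of TCF/LEF factors. The capitals mark TCAAAG, the reverse complement of the TCF/LEF core CTTTGA, which 16.2% of 27025 windows hold on 1 strand or the other.
Tac2: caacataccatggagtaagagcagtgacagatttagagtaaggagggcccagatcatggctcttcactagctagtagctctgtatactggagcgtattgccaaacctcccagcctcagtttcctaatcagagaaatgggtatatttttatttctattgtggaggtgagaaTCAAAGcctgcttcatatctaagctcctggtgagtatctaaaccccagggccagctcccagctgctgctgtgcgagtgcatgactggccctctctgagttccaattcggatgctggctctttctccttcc
Binding at this site was not measured.

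Opcml and Ppp1r14c were among the other genes lower in mutant brush cells. Opcml, a cell adhesion molecule of the IgLON family, stood at 390.9 and 171.3 CPM (fold 0.44, 0.40 to 0.48). Ppp1r14c, a phosphatase inhibitor, stood at 263.8 and 112.5 CPM, and was found in 45.6% of thinned control and 27.9% of thinned mutant brush cells. Shisa9, an AMPA receptor auxiliary protein, stood at 290.7 and 164.4 CPM, and the synaptic adhesion gene Nrxn3 at 481.3 and 267.0 CPM. Akap7, Cenpf, Sgcd, Ralgps1, Dscaml1 and Ppp2r2c complete the ranking with log2 ratios from -1.22 to -0.81. In brush cells without a UMI of Wif1, Fstl4, Adamts19 or Notum, 9 of the 12 ranked genes were still past 1.5-fold, but Nrxn3, Sgcd and Ppp2r2c were not, at log2 ratios of -0.40, -0.26 and -0.50. The 12 were ranked in cells that include these, so the 9 are a description. Over all genes 400 of 9132 were lower in brush cells without such a UMI. Control brush cells with such a UMI held 1161 CPM of Nrxn3 and 888.3 CPM of Sgcd. Apoe, at 221.6 and 92.1 CPM, had a UMI in 100% of thinned control microglia-type barcodes. Tlx3, a homeobox selector of glutamatergic fate, had 126 UMIs in 47 control brush cells and 5 UMIs in 5 mutant brush cells, or 19.1 and 1.6 CPM. Thinned control microglia-type barcodes had a Tlx3 UMI in 3.31% of cases and control brush cells in 3.03%, so the Tlx3 share was at background. Its level in the other cells was 71.3 CPM in the control library and 11.5 CPM in the mutant library.

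Pax2, a marker of GABAergic interneuron precursors, had 101 UMIs in 18 control brush cells and 0 UMIs in mutant brush cells. Against the 3 counts that a count of 0 allows over all mutant brush cells, its UMI level was at least 15.6-fold lower. That bound takes UMIs as independent, although the 101 lay in 18 cells, so it is too high for a difference counted in cells. Of 9 GABAergic genes, 5 reached 10 CPM, 2 of them lower, Pax2 included, and 1 (Gad1, 8.4 and 23.3 CPM) higher. Of the 5, 3 reached it in the control library alone, Pax2 (15.4 and 0 CPM) among them, and Gad1 in the mutant library alone, which fixed their direction. Slc32a1 and Gad2 had 27 and 22 UMIs in control and 2 and 16 UMIs in mutant brush cells.

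Meis2, Lhx9 and Lhx2, genes of the cerebellar nuclei lineage, were higher in mutant brush cells. Of 7 such genes, 4 reached 10 CPM, 3 were higher and 0 lower, with a median log2 ratio of 1.33 where the median of all genes was 0.05. Meis2, a homeobox cofactor, stood at 34.7 CPM (30.3 to 39.5) in control and 93.1 CPM (82.5 to 104.5) in mutant brush cells. Lhx9, a LIM homeobox factor of early rhombic lip neurons, stood at 24.3 and 59.8 CPM, and its relative Lhx2 at 12.8 and 38.1 CPM. Meis1 stood at 373.4 and 356.4 CPM, and Tbr1, the factor of medial nuclei, had 10 and 22 UMIs. Meis2 and Lhx9 passed 1.5-fold in all 16 alternative settings and Lhx2 in the 15 in which it reached the filter. Some of these settings, such as the changes of the gene filter, cannot move a gene's own ratio. After thinning Lhx9 was found in 6.06% of control and 8.22% of mutant brush cells, and in 0% and 3.66% of microglia-type barcodes. The other cells of the mutant library held more of these genes too: Lhx9 stood at 17.6 CPM in other control cells and 76.8 CPM in other mutant cells, and Meis2 at 109.3 and 281.2 CPM.

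A small group of cells was defined by joint detection of these genes. The grouping, chosen after the values were seen, with UMIs of at least 2 of Tbr1, Meis2, Lhx9 and Lhx2, held 19 control brush cells (3.55%, 2.15 to 5.49) and 24 mutant brush cells (10.8%, 7.02 to 15.6). These cells held brush cell genes: 8 and 9 of them had Calb2, and 16 and 17 had Otx2. The grouping held 102 of the 228 control UMIs of Meis2 and 159 of the 283 mutant ones, and 70 of 160 and 133 of 182 UMIs of Lhx9. The median depth of these cells was 15015 and 15784.5 UMIs, above the medians of all brush cells.

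Nts was higher in mutant brush cells through a few cells. It stood at 59.1 CPM in control and 296.9 CPM in mutant brush cells, from 31 and 23 cells with a UMI, and 1 mutant cell held 262 of the 903 mutant UMIs. Cells with at least 3 Nts UMIs, again a grouping made after the values were seen, numbered 15 (2.80%, 1.58 to 4.58) and 16 (7.17%, 4.16 to 11.4). Of these, 1 control and 3 mutant cells had Calb2, whereas 14 and 16 had Otx2, and Pax6 stood at 628 and 431 CPM in them. Microglia-type and erythroid-type barcodes of the mutant library had Nts in 0% and 0.41% of cases after thinning, against 8.22% of mutant brush cells. Haemoglobin leaves the erythroid-type barcodes fewer UMIs for other genes.

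Several genes with the largest ratios toward the mutant were also found in background barcodes of the mutant library. Wif1, a secreted Wnt inhibitor induced by Wnt signalling, had 1 UMI in control brush cells and 249 in mutant brush cells, or 0.15 and 81.9 CPM, a ratio of 539 with a counting interval from 95.8 to 21362. Fstl4 stood at 16.9 and 204.2 CPM, Adamts19 at 2.3 and 63.5 CPM, Rgs6 at 3.0 and 59.8 CPM and Sostdc1 at 3.2 and 83.5 CPM. Sgcz, Pde1a, Spock3, Ntng1 and Pcdh15 complete the ranking with log2 ratios from 3.42 down to 2.06. Of the 9 ranked genes that are not Wif1, Fstl4 or Adamts19, 8 were past 1.5-fold in brush cells without a UMI of those 3 or Notum, and Pcdh15 was not, at 0.30. Over all genes 491 of 9132 were higher in those cells. The 9 were picked by their ratio in cells that include those, so the 8 are a description and no separate support. Sostdc1, Rgs6 and Pde1a (6.5 CPM in control) reached 10 CPM in the mutant library alone, which fixed their direction. Ttr, the transthyretin of choroid plexus, stood at 439.4 and 4828 CPM, but 1 mutant brush cell held 11608 of its 14684 UMIs, and with at least 3 Eomes UMIs required the log2 ratio was -0.93.

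Background measured in cells that should lack these genes was high in the mutant library. Wif1 had a UMI in 8.22% of thinned mutant brush cells (4.95 to 12.7), in 17.1% of microglia-type and in 5.22% of erythroid-type barcodes, whose UMIs are over 50% haemoglobin. Adamts19 was found in 8.68% of mutant brush cells and 8.54% of microglia-type barcodes. Notum was found in 2.28% and 8.54%, and Ttr in 63.5% and 73.2%. These shares were near or below those of microglia-type barcodes and are not read as expression in brush cells. The Wif1 share was above that of erythroid-type barcodes. Fstl4 was found in 17.4% of mutant brush cells (12.6 to 23.0) and 13.4% of microglia-type barcodes, which lies inside the interval. Median depths of microglia-type barcodes were 10084 UMIs in the control library and 9967 UMIs in the mutant one. In the control library 5.11% of brush cells and 0% of microglia-type barcodes had Fstl4.

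**Figure D3:**
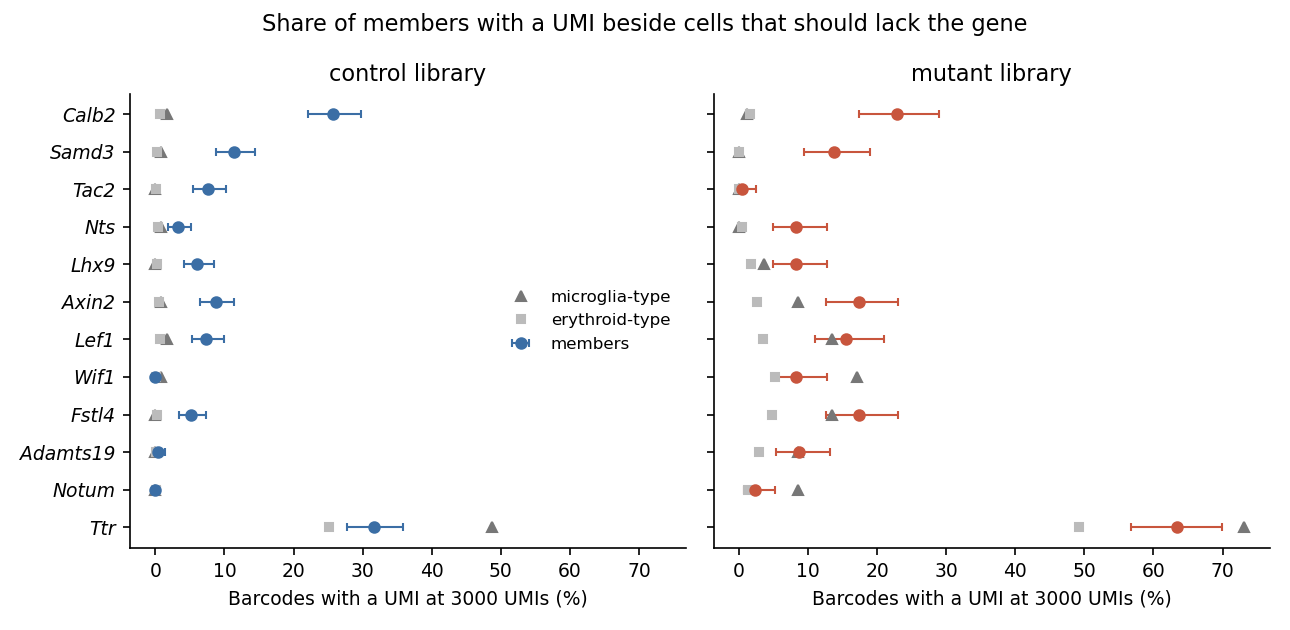
Percentage of barcodes with a UMI of each gene after thinning to 3000 UMIs, in brush cells (circles, with exact 95% binomial intervals), microglia-type barcodes (triangles) and erythroid-type barcodes (squares). Calb2 lies far above background in both libraries, whereas Wif1, Notum and Ttr of mutant brush cells lie below the microglia-type value.

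Most canonical Wnt targets that could be measured stood higher in mutant brush cells. Of 14 targets, 11 reached 10 CPM, and 10 were higher and 0 lower, with a median log2 ratio of 1.21. Of the 11, 5 reached 10 CPM in the mutant library alone, which fixed their direction, so neither the count nor the median is free of the filter. Axin2, a negative regulator of the pathway, stood at 32.1 and 75.3 CPM, Lef1, a beta-catenin partner, at 28.6 and 82.2 CPM, and Nkd1 at 149.7 and 249.9 CPM. Brush cells with at least 1 UMI of Wif1, Fstl4, Adamts19 or Notum, a gate built from genes that an earlier look at these data had found high in lesion cells, were 74 of 535 control brush cells (13.8%) and 104 of 223 mutant brush cells (46.6%). Wif1 and Notum belong to both the gate and the target list, and leaving out the gate's cells sets them to 0. Some of the other 9 targets, such as Tnfrsf19 at 3.8 and 30.9 CPM, also reached 10 CPM in the mutant library alone. Of these 9, 8 were higher over all brush cells, with a median of 0.96, and 2 over those outside the gate, with a median of 0.41. The gate was made from genes high in the mutant, so this is a description of the cells and no test. Axin2 then stood at 31.7 and 60.0 CPM, a log2 ratio of 0.90, and Lef1 at 30.1 and 43.1 CPM, a log2 ratio of 0.50. After thinning Axin2 was found in 8.71% of control brush cells and 17.4% of mutant brush cells (12.6 to 23.0), with 0.83% and 8.54% in microglia-type barcodes.

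**Figure D4:**
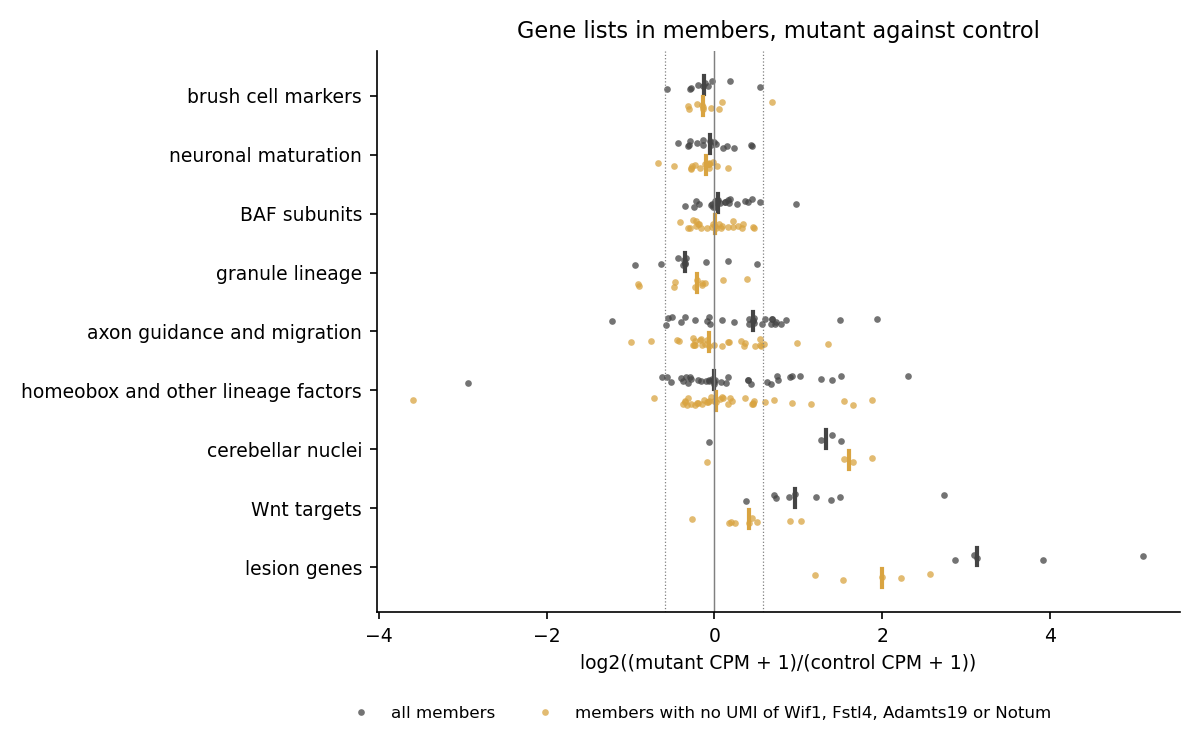
Log2 ratio of mutant to control brush cells for the genes of 9 lists that reached 10 CPM, the 4 gate genes left out (points, with the list median as a vertical bar), over all brush cells (dark) and over brush cells with no UMI of Wif1, Fstl4, Adamts19 or Notum (gold). Dotted lines mark 1.5-fold. The Wnt target median goes from 0.96 to 0.41 and the axon guidance median from 0.46 to -0.07, while that of the cerebellar nuclei genes goes from 1.33 to 1.60.

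The same division touched several other lists. Of 32 axon guidance and migration genes, 29 reached 10 CPM, 10 were higher and 1 (Ntn1) lower, and outside the gate 3 were higher and 2 lower. Ntn1, at 11.2 and 4.3 CPM, reached 10 CPM in the control library alone, which fixed its direction, and 1 gene reached it in the mutant library alone. Robo1, a Slit receptor, stood at 50.8 and 196.6 CPM over all brush cells and at 42.0 and 84.1 CPM over those outside the gate. Of 10 cyclin-dependent kinase inhibitors and Gadd45 genes, 7 reached 10 CPM and 3 were higher: Cdkn1a at 19.9 and 48.0 CPM, Cdkn1c at 83.7 and 151.3 CPM, and Gadd45g at 60.6 and 117.1 CPM. Outside the gate 0 of the 7 were past 1.5-fold, and Cdkn1a stood at 19.5 and 13.9 CPM. Ctnnb1 outside the gate stood at 79.7 and 88.5 CPM, a log2 ratio of 0.15. The proneural gene Neurog2 had 19 UMIs in control and 82 UMIs in mutant brush cells, and stood at 43.6 CPM inside and 6.6 CPM outside the gate in mutant brush cells. Smarca4, by contrast, stood at 63.9 CPM inside and 66.5 CPM outside the gate.

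Mutant brush cells inside the gate were deeper, with a median of 13890.5 UMIs against 9506 outside it, and a deeper cell has more chance to hold a UMI of any gene. They carried brush cell genes: Calb2 stood at 326.3 CPM inside and 182.1 CPM outside the gate, and Otx2 at 202.0 and 255.9 CPM. At least 3 UMIs of the 4 gate genes together were found in 44 mutant brush cells (19.7%, 14.7 to 25.6) and in 14.02% of mutant microglia-type barcodes (8.06 to 22.1). They were found in 4.23% of mutant erythroid-type barcodes, whose haemoglobin leaves fewer UMIs for other genes. The part of free RNA, of doublets and of expression in these mutant brush cells was not tested.

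Among other lineage lists the share of genes past 1.5-fold varied, beside 6.19% higher and 2.12% lower over all genes. Of 10 rhombic lip progenitor genes, 9 reached 10 CPM and 4 were higher, among them Wls, which carries Wnt ligands to the cell surface, at 21.0 and 59.8 CPM. Wls had a UMI in 29.8% and 23.2% of thinned microglia-type barcodes, above its 3.41% and 9.59% in brush cells. Of 6 Purkinje cell genes, 3 reached 10 CPM and 2 were higher, with Foxp2 at 67.5 and 187.1 CPM. The other was Calb1, at 0.91 and 16.4 CPM, which reached 10 CPM in the mutant library alone. Msx2 of the rhombic lip list did likewise, at 1.4 and 10.2 CPM, and the filter fixed the direction of both. Outside the gate 3 of the 9 and 1 of the 3 were higher. Of 40 homeobox and other lineage factors, 37 reached 10 CPM, 11 were higher and 2 lower (7 and 2 outside the gate), including Sox11 at 498.0 and 946.6 CPM. Of the 37, 2 reached 10 CPM in the mutant library alone and 1 in the control library alone. Of 16 genes of the G1/S transition 13 reached 10 CPM, 0 were higher and 1 (Gins2) lower. Gins2, at 14.9 and 9.5 CPM, reached 10 CPM in the control library alone, which fixed its direction. Of 16 genes of G2 and mitosis 5 reached 10 CPM, with 0 higher and 1 (Cenpf) lower. Of 14 proneural and intermediate stage genes 12 reached 10 CPM, with Neurog2 higher and Nhlh2 lower. Neurog2, at 2.9 and 27.0 CPM, reached it in the mutant library alone, which fixed its direction. Of 10 midbrain or isthmic genes, Pou4f1, Tfap2d and Nr4a2 reached 10 CPM, at 11.5, 13.2 and 10.2 CPM in mutant and 1.4, 6.4 and 6.2 CPM in control brush cells. All 3 reached it in the mutant library alone, which fixed their direction, and the other 7 were under 10 CPM in both. Of 5 microglia genes 0 reached 10 CPM, and their summed level was 26.6 CPM in control and 4.3 CPM in mutant brush cells. Fibroblast, endothelial and oligodendrocyte precursor genes summed to 39.1, 26.6 and 28.3 CPM in control and to 26.6, 21.4 and 6.9 CPM in mutant brush cells.

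Brush cells were not uniform, and they were next divided by Calb2 in each library. Brush cells with a Calb2 UMI (181 control and 80 mutant) were shallower than those without (354 and 143), with medians of 8827 and 10139.5 UMIs against 10611 and 12329. Between them 9.05% of genes were higher by 1.5-fold or more and 5.3% lower among control brush cells, and 13.4% and 9.46% among mutant brush cells. Of 8860 genes measured in both, 424 were higher in both, 208 lower in both and 51 opposite. The neuropeptide precursor gene Scg2 stood at 67.1 CPM with Calb2 and 4.5 CPM without in the control library, and at 80.1 and 4.6 CPM in the mutant library. The metabotropic glutamate receptor Grm8 stood at 121.2 and 11.5 CPM, and at 128.4 and 14.4 CPM. Elmod1, Tenm1, Lrrtm4 and Fgf14, which modulates sodium channels, followed.

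Samd3 was higher with Calb2, and Otx2 and Pax6 stood lower. Samd3 stood at 89.5 and 16.7 CPM in the control library and at 89.2 and 21.6 CPM in the mutant library. Pax6 stood at 277.9 and 434.1 CPM in the control library and at 224.9 and 368.0 CPM in the mutant library, and Otx2 at 214.9 and 306.0 CPM and at 173.0 and 256.3 CPM. Lower with Calb2 were Nts (2.8 against 86.4 CPM and 109.3 against 403.0 CPM), the guidance ligand Slit1, Abca4, Ecrg4, Tead2 and Otx2os1. Otx2os1 overlaps Otx2 in the opposite direction, and the labels do not say whether counting used strand.

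**Figure D5:**
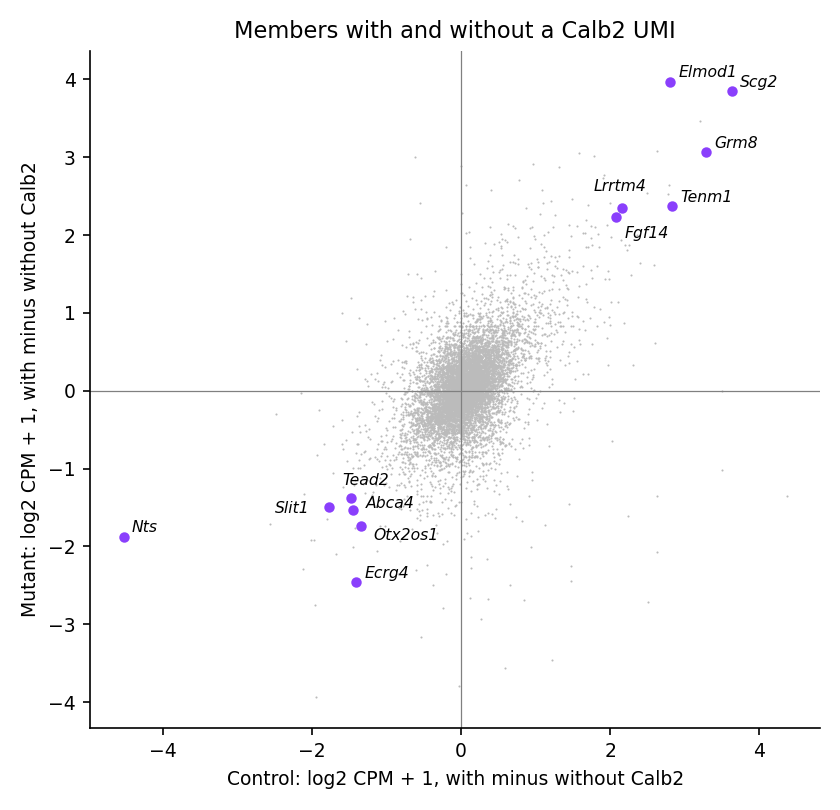
Log2 ratio of brush cells with to brush cells without a Calb2 UMI in the control library (horizontal) and the mutant library (vertical), each point a gene, with 12 genes named by rule in purple. The named genes lie in the upper right, led by Scg2 at 3.63 and 3.85, or the lower left, where Nts is at -4.52 and -1.87.

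The Atoh1 division ran against the Calb2 one. Brush cells with an Atoh1 UMI numbered 68 control and 38 mutant, and 14 and 6 of them had Calb2. After thinning Atoh1 was found in 4.92% of control (3.24 to 7.13) and 6.85% of mutant brush cells (3.88 to 11.0), and in 1.65% and 0% of microglia-type barcodes. The part of free RNA in them was not tested. Between brush cells with and without Atoh1, 8.4% of genes among control and 14.3% among mutant brush cells were higher by 1.5-fold or more, and 12.2% and 14.5% were lower. Of 8830 genes measured in both, 364 were higher in both, 431 lower in both and 67 opposite. The replication helicase genes Mcm6 and Mcm4 stood at 77.5 and 52.3 CPM with Atoh1 and at 21.2 and 16.2 CPM without it in control brush cells. In mutant brush cells they stood at 93.8 and 59.4 CPM with Atoh1 and at 12.9 and 15.4 CPM without. Btbd11, Barx2, Mgarp and Nme4 were also higher. Calb2 stood at 114.0 CPM with and 296.6 CPM without Atoh1 in the control library and at 62.5 and 314.4 CPM in the mutant library. Of those lower with Atoh1, Ttr, Cadm2, Ptprz1, Mt3, Bcl11b and Tmem132d led. Brush cells with Atoh1 were deeper, at 12928 and 14817.5 UMIs against 9249 and 10469.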

How the data were processed

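Single-cell RNA was measured in 1 control and 1 mutant library, each pooling 3 samples of E16.5 cerebella that were digested with papain and DNase and sorted for live cells, per the labels' protocols. The deposited values are raw UMI counts per gene and barcode. The authors used Cell Ranger 7.0.1 and mm10, per the submitters' processing notes, and the annotation, intron counting, cell calling and any doublet removal are not given. The files held 21457 control and 21596 mutant barcodes with 225512196 and 220565819 UMIs. Coordinates came from GENCODE M21 (GRCm38), which held 32158 of 32285 gene identifiers.

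UMIs were summed over cells per library and scaled to CPM, and log2 ratios were taken after adding 1 CPM, for genes at 10 CPM or more in either group. Brush cell totals were 6579742 and 3041266 UMIs. Calls were by size (1.5-fold), with no test, since there was 1 library per genotype. Intervals were exact Poisson for CPM, Clopper-Pearson for shares and exact conditional binomial for ratios, at 95%. UMIs of 1 cell are not independent cells, so they cover counting error only. Shares were taken after thinning to 3000 UMIs (seed 1). Microglia-type barcodes had at least 3 UMIs over 2 or more of C1qa, C1qb, C1qc, Csf1r and Cx3cr1 and no Eomes (139 and 107 barcodes), and erythroid-type ones over 50% haemoglobin UMIs (4066 and 4424). Scrublet in scanpy 1.11.5 used an expected rate of 16%. The log2 ratio and thinning steps were tested on simulated counts with no spread between cells. The binomial interval was checked on 1 example, and the Poisson and ratio intervals were not tested.

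The cells, gene lists and groupings were chosen with earlier results of these data known. Genes were named by rule: the 12 largest ratios each way between libraries at 50 CPM or more, the 15 leading genes of brush cells over other cells, the 6 largest each way in other comparisons, and up to 4 per list with the brush cell markers and the targeted genes. Numbered, mitochondrial, ribosomal, haemoglobin and sex-linked genes and the genes of the rule were left out of rankings. Some genes that the rule picked are not reported here. Genes named outside it are those in the cell groupings and list genes given as examples. The examples include Axin2, Nkd1, Tubb3, Stmn2, Sox11, Slc32a1, Gad2, Th and Foxa2. Alternatives changed the rule for brush cells, filters, pseudocount, totals, centring, depth and doublets, and left out cells with lesion genes or much haemoglobin.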

Additional observations from a re-analysis of the deposited data

How the results depend on the processing

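No paired analysis was possible because each genotype had 1 library. The mutant to control ratio of the brush cell share was 0.294 when cells were thinned to 3000 UMIs before the rule (173 control and 51 mutant brush cells) and 0.625 when barcodes with Wif1, Fstl4, Adamts19 or Notum were left out of both the brush cells and the totals. The other 8 alternatives gave 0.413 to 0.442. The count of genes past 1.5-fold followed each choice more than the direction did. Higher and lower genes numbered 319 and 67 with 10 CPM added, 1895 and 1162 without a filter, 158 and 29 at 50 CPM, 1094 and 759 over thinned cells, and 368 and 299 without brush cells holding 2 or more of 10 lesion genes, an alternative chosen after seeing the data. Lower genes numbered 393 with at least 2 Lmx1a UMIs, 302 with haemoglobin, mitochondrial and ribosomal genes left out of the totals, and 400 without brush cells holding a UMI of the 4 gate genes. Higher genes were 74.5% of those past 1.5-fold, 60.3% with at least 2 Lmx1a UMIs, 62.0% without a filter, 59.0% over thinned cells, 55.1% without the gate's cells, 55.2% without cells of 2 or more lesion genes and 62.4% without the top cell of each gene. Genes higher in brush cells than in other cells of both libraries numbered 1077 without a filter on barcodes. The Calb2 share was 33.8% and 35.9% without thinning. Ratios past 1.5-fold that changed sign were Ttr (-0.93 with at least 3 Eomes UMIs), Sox2 and Grm5 (-0.46 and -0.043 with at least 2 Lmx1a UMIs), Cdkn1c and Cdkn1a (-0.47 and -0.46 without the gate's cells), and Pbx3 and Cdkn1a (-0.049 and -0.11 without cells of 2 or more lesion genes). The causes were not tested. Of 2474 values of named genes under the alternatives, 2019 moved by less than the counting interval and 105 had the other sign, 7 of them for genes past 1.5-fold and 98 for 39 genes within it, and no scaling moved the median of all genes by over 0.1. The 2474 include values without a gene filter and at 50 CPM, which cannot move a gene's own ratio, so their agreement was fixed in advance.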

Other observations

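Lrrtm4, a synapse-organising protein, stood at 418.7 CPM with and 92.7 CPM without Calb2 in control brush cells and at 715.6 and 139.5 CPM in mutant brush cells. Fgf14 stood at 739.9 and 173.9 CPM, and at 806.6 and 171.4 CPM. Tenm1, a teneurin adhesion protein, stood at 173.9 and 23.7 CPM, and at 166.6 and 31.4 CPM. Brush cells without Calb2 held more of Slit1 (58.2 against 16.3 CPM among control brush cells and 101.9 against 35.5 CPM among mutant brush cells) and of Tead2, a Hippo pathway factor of progenitors (59.1 against 20.5 CPM and 77.2 against 29.1 CPM).

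Brush cells in none of the groupings by cerebellar nuclei genes, Nts, Tac2, Tlx3 or at least 3 UMIs of the gate genes numbered 380 control (71.0%) and 144 mutant cells (64.6%). In these cells Otx2 had a UMI in 86.8% of control and 72.2% of mutant brush cells, at median depths of 9100 and 8965.5 UMIs. Of the control brush cells with Tac2, 6 also had Tlx3.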
